A study of Mus musculus with 12 samples.

Results

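The immediate-early genes Egr1, Egr2, Nab2, Jun, Junb, Fos, Fosb, Dusp1 and Ier2 were followed across 4 genotypes of mouse granulocyte-monocyte precursors (GMPs), which in bone marrow produce the granulocytes and the monocytes. The members were chosen by name, and all 9 were found among the 14201 genes with a value. They rest on 22 of the 105661 probe sets of the table, a probe set being a small group of probes on the Affymetrix Mouse Gene 1.0 ST array that reads 1 stretch of a transcript. The strain of all mice was C57BL/6, and each genotype had 3 arrays. WT mice carried mouse Gfi1, KO mice were Gfi1 knock-out, wtKI mice carried a human Gfi1-wt knock-in, and SNP mice a human Gfi1-SNP knock-in. The labels give no age or sex and do not say whether the alleles were carried in 1 or both copies. They also do not say whether the arrays of a group were separate mice or pools. The p-values therefore set a difference of group means against the spread among these samples only, and that spread may be technical. The values are log2 signals, on which a difference of 1 is a doubling, and the probe sets of a gene were combined into 1 gene value per array. GMPs were collected by cell sorting as bulk samples, in which fewer cells that express a gene and less of its RNA per cell cannot be told apart.

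Immediate-early genes are switched on within minutes of a signal, without new protein synthesis, when kinases of the ERK, JNK and p38 cascades act on factors already bound at their promoters, such as SRF and CREB. Egr1 and Egr2 encode zinc-finger transcription factors, and Nab2 encodes a corepressor that binds EGR proteins. Jun, Junb, Fos and Fosb encode subunits of AP-1, a dimeric transcription factor. Dusp1 encodes a phosphatase that switches MAP kinases off again, and Ier2 encodes a nuclear protein of the same early response. In myeloid precursors EGR1 and EGR2 together with NAB2 are described as favouring the monocyte and macrophage fate and as opposing GFI1, a zinc-finger repressor that favours the granulocyte fate and is reported to repress Egr1 and Egr2. That reported relation is the reason to look at these genes where Gfi1 is lost or replaced.

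RefSeq promoter windows of the GRCm38.p6 assembly (250 bases before to 50 bases after a transcript start) were held for 7 of the 9 members, all but Egr1 and Ier2. The 200 bases before the start are shown for the members whose values are described at most length and, for contrast, for Nab2, which hardly varied. Capitals mark every match, on either strand, to the CArG box bound by SRF, to TGACG (the core of the CREB motif), to TGACATCA (a site of the AP-1 type), to GCGGGGGCG (the EGR motif) and to AAATCA (around the AATC core of the GFI1 motif). TGACG also lies within the full CREB motif TGACGTCA.
Egr2 (chr10:67537669-67537868, plus strand): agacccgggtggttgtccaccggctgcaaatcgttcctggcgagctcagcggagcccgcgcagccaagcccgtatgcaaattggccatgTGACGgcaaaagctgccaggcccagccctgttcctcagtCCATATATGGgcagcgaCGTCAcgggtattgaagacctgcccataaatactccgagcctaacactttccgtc
Jun (chr4:95052223-95052422, minus strand): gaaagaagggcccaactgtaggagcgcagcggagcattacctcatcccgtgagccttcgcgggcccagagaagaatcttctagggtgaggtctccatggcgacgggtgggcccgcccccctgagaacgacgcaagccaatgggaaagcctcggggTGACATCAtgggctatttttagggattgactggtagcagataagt
Fos (chr12:85473690-85473889, plus strand): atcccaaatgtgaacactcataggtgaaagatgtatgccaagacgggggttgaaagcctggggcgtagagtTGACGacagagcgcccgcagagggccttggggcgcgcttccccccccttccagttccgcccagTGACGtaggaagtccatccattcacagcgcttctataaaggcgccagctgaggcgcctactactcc
Dusp1 (chr17:26508473-26508672, minus strand): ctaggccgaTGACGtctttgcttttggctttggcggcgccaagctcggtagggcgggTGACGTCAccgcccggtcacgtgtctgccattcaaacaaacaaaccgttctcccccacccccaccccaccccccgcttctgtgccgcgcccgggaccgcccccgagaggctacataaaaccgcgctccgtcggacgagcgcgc
Nab2 (chr10:127666704-127666903, minus strand): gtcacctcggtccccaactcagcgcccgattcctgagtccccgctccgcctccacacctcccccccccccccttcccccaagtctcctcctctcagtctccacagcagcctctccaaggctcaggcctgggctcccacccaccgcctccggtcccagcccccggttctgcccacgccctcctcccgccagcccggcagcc
Egr2 has 5 starts in the table, and the window with the most matches is shown. TGACG was found in the windows of Egr2, Junb, Fos, Fosb and Dusp1, 5 of 7 members, against 23% of the 27025 genes with a window. A CArG box was found for Egr2 alone (1.81% of genes), TGACATCA for Jun (4.18%), TGACGTCA for Dusp1 (2.03%) and GCGGGGGCG for Fosb (3.31%). AAATCA was in none of the 7 (15.9% of genes), and Nab2 had no match to any of these motifs. These are matches of letters in short windows, not measured binding.

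Arrays KO 1 and SNP 1 stood apart from the others. Their median correlations with the other arrays were 0.701 and 0.633, against 0.836 to 0.886 for the other 10, and the scatter among the probe sets of a gene was 0.757 and 0.745 (log2) on them, against 0.321 to 0.458. The targeted gene, Gfi1, was at 5.75, 5.71 and 6.26 in WT, 6.33, 6.78 and 6.57 in KO, 6.09, 6.38 and 6.13 in wtKI and 5.94, 6.35 and 6.42 in SNP. It was thus not lower in the arrays labelled KO, and since the labels do not give the deleted part of the gene, these probes do not check the genotype labels. Of the 9 measured GMP markers, Mpo, the myeloperoxidase of primary granules, was at or above the 99.1 percentile of genes on every array and Ctsg, a granule protease, at or above the 95.0 percentile. Others reached lower, with lowest percentiles of 54.0 for Prtn3, 58.0 for Fcgr2b, 47.0 for Fcgr3 and 21.6 for Kit, the last on SNP 1. On SNP 1 these 9 markers lay 1.41 below the WT mean on average, while late neutrophil, B-lineage and erythroid markers lay 3.93, 3.63 and 3.29 above it. Y-linked genes were low on WT 3, wtKI 2 and wtKI 3 and high on the other 9 arrays. Each comparison of the members is therefore given both on all 12 arrays and on the other 10, and a fit with sex as a term was also run.

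WT had the lowest mean of the 4 genotypes for 8 of the 9 members, all but Nab2, against 24.2% of all genes. No member passed a moderated F test over the 4 genotypes (limma, Benjamini-Hochberg over all genes, threshold 0.05), and neither did any other gene (0% called). At an unadjusted p under 0.05 the F test picked 9.08% of all genes and 2 of the members. These were Egr2 (limma unadjusted p = 0.00197, adjusted p = 0.405) and Jun (unadjusted p = 0.00392, adjusted p = 0.434). The F-test adjusted p of the other 7 members lay between 0.610 and 0.998. The members were named with earlier results of these data known, so their common position is a description.

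**Figure D1:**
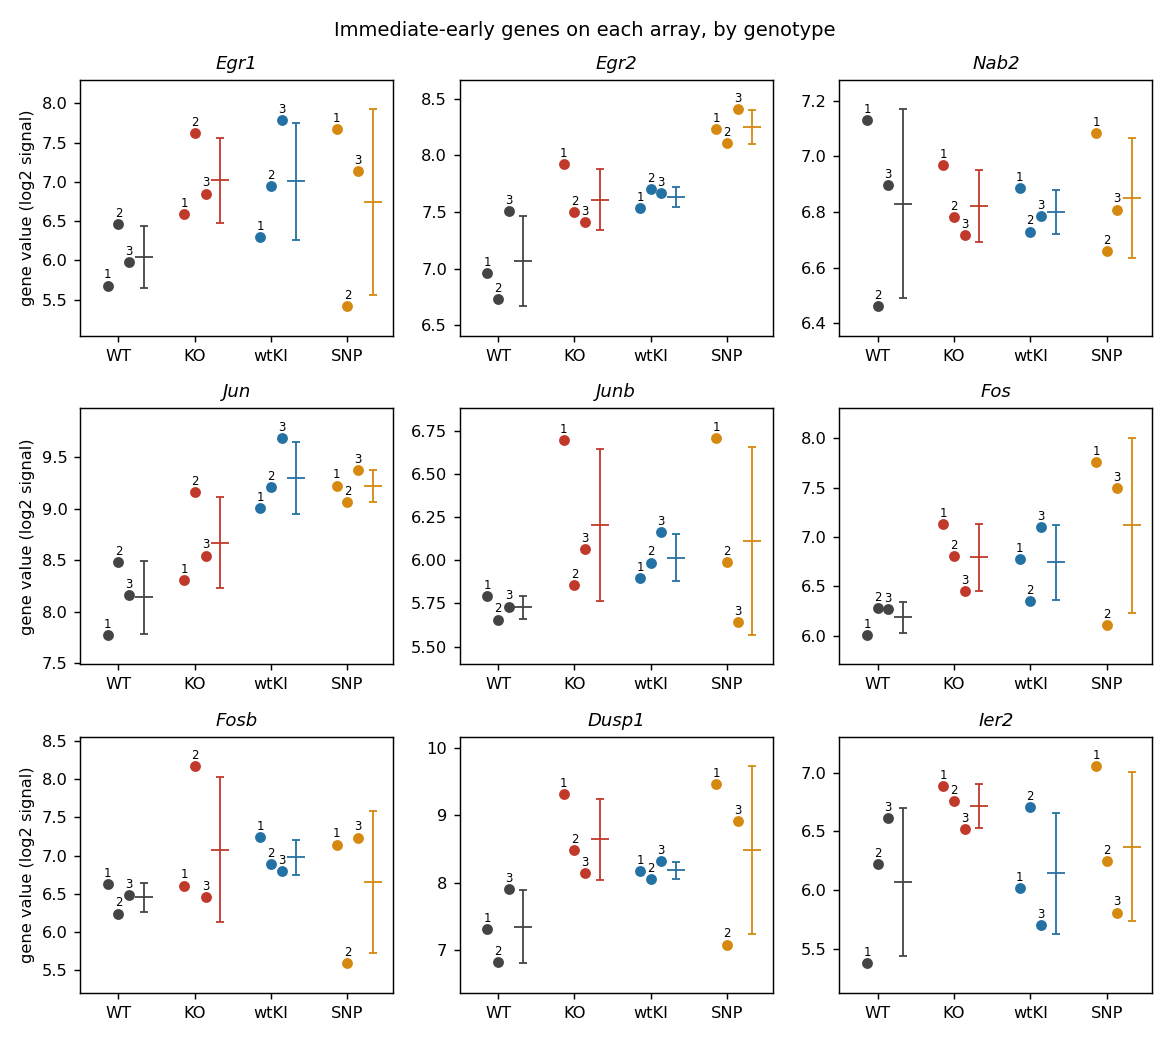
Gene value (log2 signal, vertical axes) of each immediate-early gene on the 3 arrays of each genotype, with numbers giving the array and bars the mean ± SD (n = 3); the vertical scale differs between panels. Egr2 is highest on the 3 SNP arrays, Jun lies above every WT array on the wtKI and SNP arrays, and SNP 2 is far below SNP 1 and SNP 3 for Egr1, Fos, Fosb and Dusp1.

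Egr2 had the clearest order of genotypes. It was at 6.96, 6.73 and 7.51 in WT, 7.92, 7.50 and 7.41 in KO, 7.53, 7.70 and 7.67 in wtKI and 8.23, 8.11 and 8.40 in SNP (log2). The SNP arrays lay above all 9 others, and the wtKI arrays lay above the WT arrays by a margin of hundredths. WT overlapped with KO, and KO with wtKI, their means being 0.02 apart. Means ± SD (n = 3) were 7.07 ± 0.40 in WT, 7.61 ± 0.27 in KO, 7.63 ± 0.09 in wtKI and 8.25 ± 0.15 in SNP. The step from wtKI to SNP was thus larger than the spread within either group, and the step from KO to wtKI was not.

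Egr1 was far more scattered. It was at 5.68, 6.46 and 5.97 in WT, 6.58, 7.62 and 6.85 in KO, 6.30, 6.94 and 7.78 in wtKI and 7.67, 5.42 and 7.14 in SNP. Only the KO arrays all lay above WT, and SNP 2 had the lowest Egr1 value of the 12 arrays while its Egr2 value was among the highest. Means ± SD (n = 3) were 6.04 ± 0.39, 7.02 ± 0.54, 7.01 ± 0.75 and 6.74 ± 1.18 in WT, KO, wtKI and SNP. Ordered by mean (WT, SNP, wtKI, KO), no neighbouring groups lay apart. Nab2, the EGR corepressor, was between 6.46 and 7.13 on all arrays. Its group means lay between 6.80 and 6.85, and the 4 groups overlapped.

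Jun was the AP-1 subunit with the most even differences. It was at 7.77, 8.48 and 8.16 in WT, 8.30, 9.16 and 8.54 in KO, 9.01, 9.21 and 9.69 in wtKI and 9.22, 9.07 and 9.37 in SNP. Both knock-in groups lay above WT without overlap, KO lay between and overlapped with each of the other groups, and the knock-in means differed by 0.08, less than their SDs of 0.35 and 0.15. Fos was at 6.01, 6.28 and 6.27 in WT, 7.13, 6.80 and 6.45 in KO, 6.78, 6.35 and 7.10 in wtKI and 7.76, 6.11 and 7.49 in SNP. KO and wtKI lay above WT, while SNP held both the 2 highest values and, after WT 1, the lowest.

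Fosb, the close relative of Fos, reached 8.17 on KO 2 and 5.59 on SNP 2, its extremes. Its other 10 values lay between 6.24 and 7.24, and WT overlapped with KO and SNP. Junb was at 5.79, 5.66 and 5.73 in WT and had its highest values, 6.69 and 6.71, on KO 1 and SNP 1. The remaining KO and SNP arrays were at 5.85, 6.06, 5.99 and 5.64, and the wtKI arrays at 5.90, 5.99 and 6.16. Junb thus lay above WT on all KO and wtKI arrays, and its larger values were those of the arrays that stand apart.

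Dusp1, the MAP kinase phosphatase, had the largest difference between KO and WT of the 9 members. It was at 7.31, 6.82 and 7.90 in WT, 9.31, 8.48 and 8.14 in KO, 8.17, 8.05 and 8.31 in wtKI and 9.46, 7.08 and 8.91 in SNP. KO and wtKI lay above WT without overlap, and SNP 2 lay among the WT arrays. Ier2 was at 5.38, 6.22 and 6.62 in WT, 6.89, 6.76 and 6.52 in KO, 6.02, 6.71 and 5.70 in wtKI and 7.06, 6.25 and 5.81 in SNP. All neighbouring groups overlapped for Ier2, and KO had the least spread (SD 0.19, n = 3).

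KO against WT asked what follows the loss of Gfi1, which is reported to repress Egr1 and Egr2. In KO 8 of 9 members were higher than in WT, where 46.9% of all genes were, and the median of the 9 differences was 0.61 on the log2 scale against -0.02 over all genes. Dusp1 was 1.30 ± 0.53 higher (standard error of the limma fit, as for all differences that follow), Egr1 0.98 ± 0.55, Ier2 0.65 ± 0.39, Fosb 0.62 ± 0.49, Fos 0.61 ± 0.38, Egr2 0.54 ± 0.22, Jun 0.53 ± 0.27 and Junb 0.48 ± 0.28, while Nab2 was at -0.01 ± 0.20. No member passed the limma test over all genes (0 of 9, with 0% of all genes called and adjusted p = 0.9996 for each member). At an unadjusted p under 0.05 there were 2 members, against 4.72% of all genes. These were Egr2 (limma, unadjusted p = 0.0307) and Dusp1 (0.0326). The KO arrays lay above the WT arrays without overlap for Egr1, Junb, Fos and Dusp1, 4 of 9 members against 5.68% of all genes. On the 10 arrays the same 8 genes were higher with a median of 0.57 (Dusp1 0.96, Egr1 1.20, Jun 0.72, Egr2 0.39). Of the 9, 0 passed, where 4 genes of the whole table did (0.0282%). The limma unadjusted p was then 0.113 for Egr2, 0.0695 for Dusp1 and 0.0312 for Jun. With array weights, which gave KO 2 a weight of 6.83 and KO 1 one of 0.219, Jun (0.97, limma adjusted p = 0.0262) and Egr1 (1.52, adjusted p = 0.0468) did pass, so that these calls rest mainly on KO 2.

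wtKI against WT set the human Gfi1-wt knock-in against mouse Gfi1. Again 8 of 9 members were higher, with 48.8% of all genes higher, and the median difference was 0.56 against -0.01 over all genes. Jun was 1.16 ± 0.27 higher in wtKI, with the smallest p among the members (unadjusted p = 0.00119, limma adjusted p = 1.00). Egr1 was 0.97 ± 0.55 higher, Dusp1 0.84 ± 0.53, Egr2 0.57 ± 0.22 (unadjusted p = 0.0253), Fos 0.56 ± 0.38, Fosb 0.52 ± 0.49 and Junb 0.29 ± 0.28, whereas Ier2 was at 0.07 ± 0.39 and Nab2 at -0.03 ± 0.20. None of the 9 passed over all genes (limma, 0% of genes called), and 2 were at an unadjusted p under 0.05, against 3.06% of all genes. The wtKI arrays lay above WT without overlap for Egr2, Jun, Junb, Fos, Fosb and Dusp1, 6 of 9 members against 5.77% of genes. KO 1 and SNP 1 enter this comparison only through the shared spread, and without them Junb was at an unadjusted p of 0.0790 and Jun at 0.00115 with the same differences. With sex as a term Jun was 1.08 ± 0.29 and Egr2 0.43 ± 0.21 higher.

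SNP against WT set the human Gfi1-SNP knock-in against mouse Gfi1, and all 9 members were higher on 12 arrays (49.3% of all genes higher, median 0.70 against -0.01). Egr2 was 1.18 ± 0.22 higher in SNP (unadjusted p = 0.000215, limma adjusted p = 0.179) and Jun 1.08 ± 0.27 (0.00197, limma adjusted p = 0.246). Only for them did the SNP arrays all lie above WT, 2 of 9 members against 12.9% of all genes. Dusp1 was 1.14 ± 0.53 higher and Fos 0.93 ± 0.38 (unadjusted p = 0.0319). None passed over all genes (0% called), and 3 of 9 were at an unadjusted p under 0.05, against 15.9% of all genes. The differences of the other members varied with the arrays used. On the 10 arrays 6 of 9 were higher and the median was 0.24, with Egr2 at 1.19, Jun at 1.08, Dusp1 at 0.65, Fos at 0.61, Egr1 at 0.24 and Junb at 0.09. Ier2, Fosb and Nab2 were then at -0.04, -0.04 and -0.09. Leaving out SNP 2 in place of SNP 1 gave a median of 1.16. Centring each array on its median moved the median of all genes in this comparison from -0.01 to 0.12, so that a common shift of that size cannot be assigned to the members. The 3 comparisons with WT share its 3 arrays, and a low value on them enters all of them.

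SNP against wtKI set both human knock-ins against each other, the comparison closest to the study's stated aim of finding targets of the SNP form. Egr2 alone lay above wtKI on all SNP arrays, 1 of 9 members against 7.23% of genes. It was 0.61 ± 0.22 higher on 12 arrays (unadjusted p = 0.0171, limma adjusted p = 0.551), 0.62 ± 0.22 on the 10 arrays and 0.88 ± 0.25 with sex as a term (unadjusted p = 0.00466, limma adjusted p = 0.948). Fos was 0.38 ± 0.38, Dusp1 0.30 ± 0.53, Ier2 0.23 ± 0.39, Junb 0.10 ± 0.28 and Nab2 0.05 ± 0.20, and Jun, Egr1 and Fosb were at -0.08 ± 0.27, -0.27 ± 0.55 and -0.32 ± 0.49. In all 6 of 9 were higher (47.5% of all genes, median 0.10 against -0.02). No member passed (limma, 0% of genes called), and 1 of 9 was at an unadjusted p under 0.05 (8.84% of all genes). On the 10 arrays 2 of 9 were higher, Egr2 and Fos (0.06), and the median was -0.12. The sign of the median thus turned with SNP 1, and that of Egr2 did not.

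In SNP against KO Egr2 was 0.64 ± 0.22 higher in SNP (unadjusted p = 0.0141, limma adjusted p = 0.320) and without overlap, as 1 of 9 members against 6.71% of genes. Jun was 0.55 ± 0.27 higher, and 4 of 9 were higher in all (51.3% of genes, median -0.09 against 0.01). None passed over all genes (0.0141% of genes called), and 1 of 9 was at an unadjusted p under 0.05 (12.6% of genes). On the 10 arrays 3 of 9 were higher, with a median of -0.14. KO against wtKI had Jun at -0.63 ± 0.27 (unadjusted p = 0.0390, limma adjusted p = 0.999), lower in KO, and the groups overlapped through KO 2. On the 10 arrays Jun was at -0.45 (limma, unadjusted p = 0.147), so the smaller p depended on the arrays used. With all arrays its probe sets 10514467 and 10514470 were at -1.68 and -1.06, and both were low on KO 1 (4.22 and 4.90). Probe sets 10514468 and 10514469 were at -0.16 and -0.24. With all arrays no member lay apart in either direction (5.34% of genes higher and 5.55% lower in KO without overlap). At an unadjusted p under 0.05 Jun was 1 of 9, against 4.51% of genes, and 0 of 9 passed by limma (0% called). Dusp1 and Ier2 were 0.46 ± 0.53 and 0.58 ± 0.39 higher in KO, and 7 of 9 were higher (47.3% of genes, median 0.05 against -0.02), against 4 of 9 on the 10 arrays (median -0.05).

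**Figure D2:**
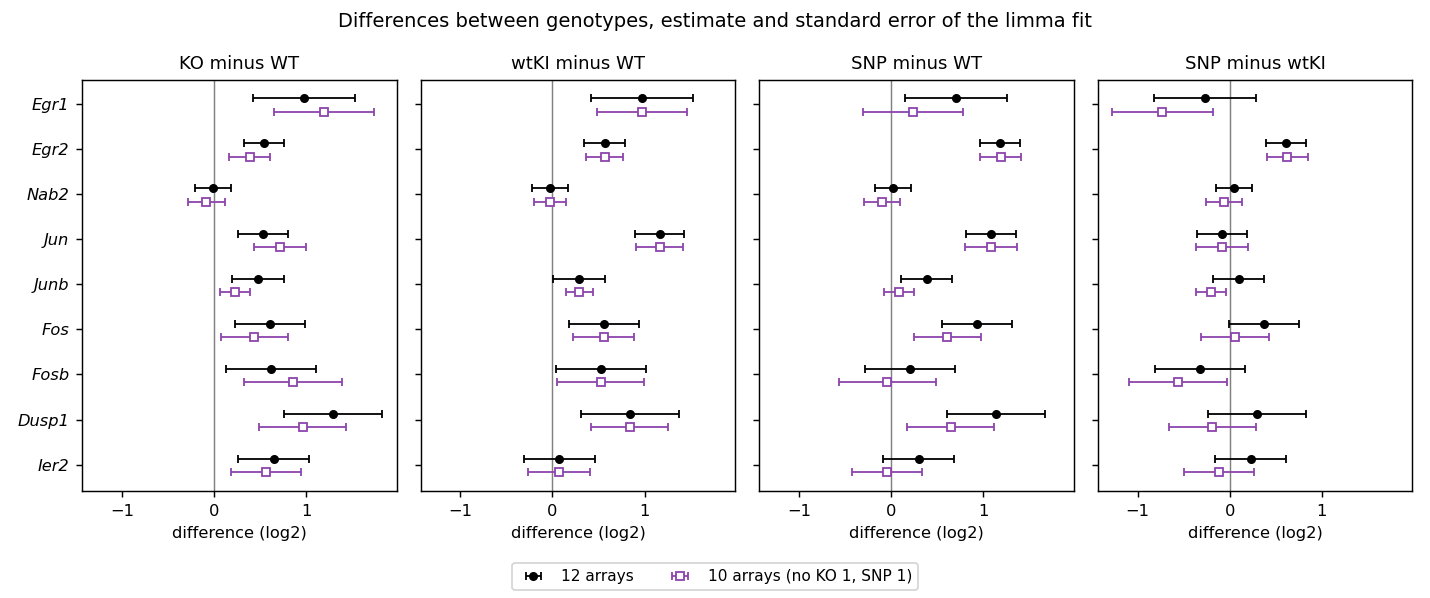
Differences of group means (log2, horizontal axis) for 4 comparisons, as estimate and standard error of the limma fit on 12 arrays (filled circles) or with KO 1 and SNP 1 left out (10 arrays, open squares). Against WT all members but Nab2 are at or above 0 in KO and wtKI with both sets of arrays, while in SNP only Egr2 and Jun keep their size when KO 1 and SNP 1 are left out.

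Replicate arrays of a genotype differed more for most of these genes than for the median gene. The residual SD within groups had a median of 0.52 over the members against 0.32 over all genes, and 0.47 against 0.24 on the 10 arrays. Egr1 (SD 0.77), Dusp1 (0.74) and Fosb (0.68) lay at the 89.8th, 89.8th and 87.2nd percentile of genes with the same number of probe sets. Egr2 (0.26) and Nab2 (0.22) lay at the 27.6th and 22.1st. The spread was thus concentrated in Egr1, Fosb and Dusp1, and then Ier2 (0.52) and Fos (0.52), and was not shared by Egr2.

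Several of the scattered genes deviated together from array to array. Relative to the group mean, SNP 2 was at -1.33 for Egr1, -1.01 for Fos, -1.07 for Fosb and -1.40 for Dusp1, but at -0.14 for Egr2 and -0.15 for Jun. KO 2 was at 0.60 for Egr1, 0.49 for Jun and 1.09 for Fosb and at 0.01 for Fos. As a description over deviations from the group mean, with the arrays shared by every pair of genes, r was 0.88 between Fos and Dusp1, 0.75 between Egr1 and Fos and 0.72 between Egr1 and Jun over 12 arrays. These pairs had the highest r of the 36 over 12 arrays. Over the 10 arrays they were at 0.80, 0.82 and 0.84. The 10 arrays are part of the 12, so these values are no separate check. In KO and in SNP the remaining arrays then deviate by equal amounts in opposite directions. Of the 36 pairs of members 30 had r above 0 over 12 arrays (median 0.32) and 22 over 10 (median 0.18). Junb moved from 0.40 with Fos to -0.56 when KO 1 and SNP 1 were left out, so that its r with Fos depended on those arrays.

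**Figure D3:**
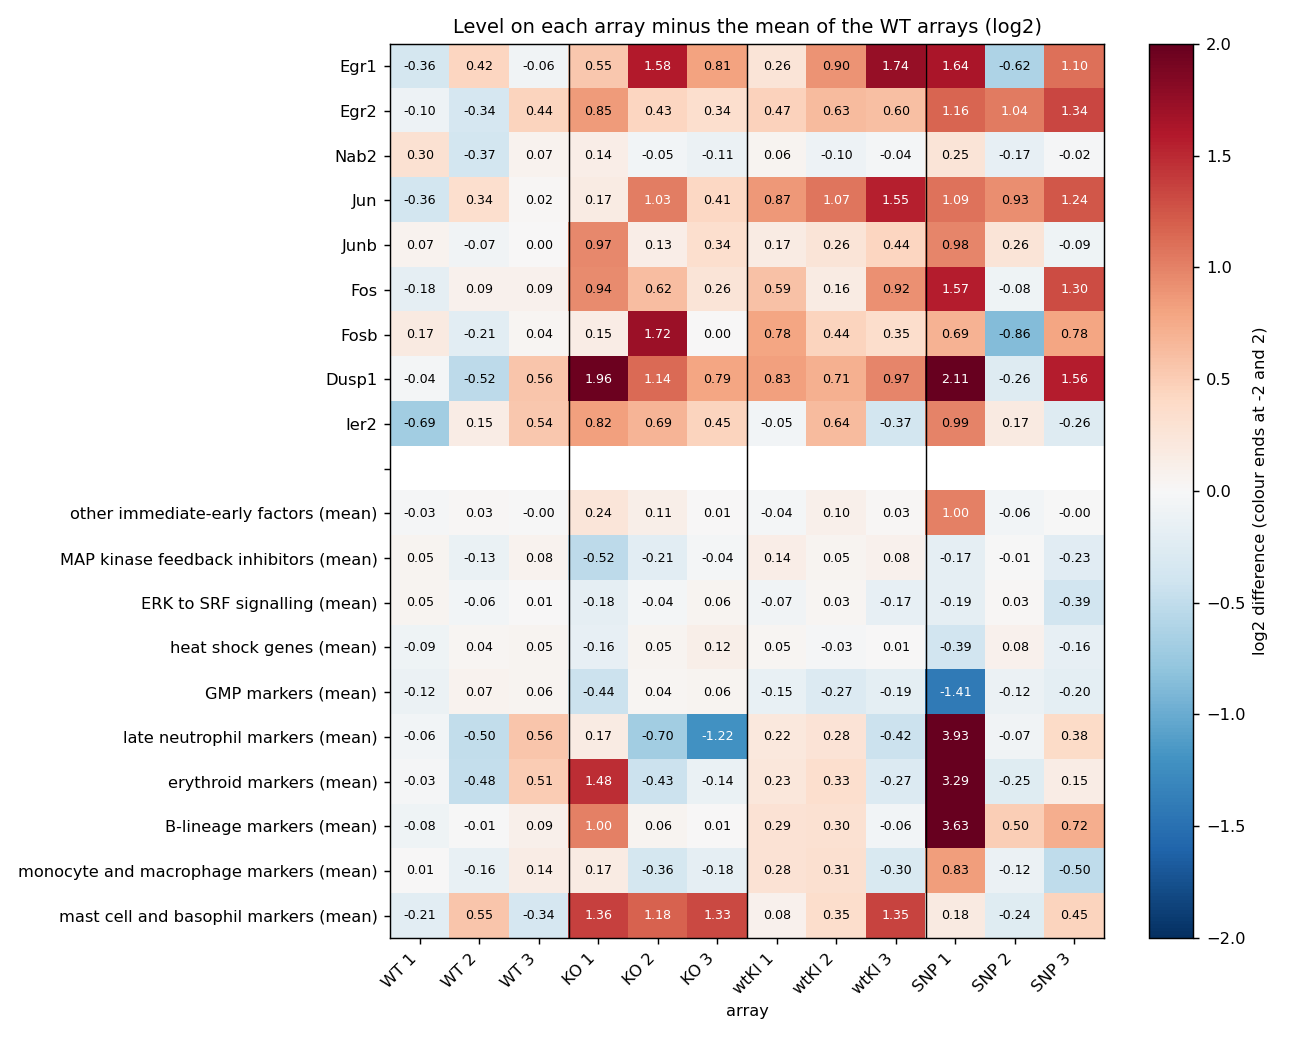
Level of each immediate-early gene (upper rows) and mean level of 10 gene lists (lower rows) on each of the 12 arrays (columns), minus the mean of the WT arrays, in log2 units; colours end at -2 and 2 and the number is printed in each cell. Most members are above the WT mean on the KO and wtKI arrays and on SNP 1 and SNP 3, SNP 2 is below it for Egr1, Nab2, Fos, Fosb and Dusp1, and the late neutrophil, erythroid and B-lineage rows stand out on SNP 1.

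Probe sets bore out some of the gene values better than others. Egr1, Egr2, Junb and Ier2 rest on 1 probe set each, so nothing within the array checks them. The 3 probe sets of Dusp1 were all higher than WT in KO (1.27 to 1.47), in wtKI (0.39 to 1.02) and in SNP (1.04 to 1.39). The 4 probe sets of Jun were all higher in wtKI (0.76 to 1.46) and in SNP (0.23 to 1.67). In KO 2 of the 4 were at -0.25 and -0.30, and on KO 1 these probe sets, 10514467 and 10514470, were at 4.22 and 4.90 where 10514468 and 10514469 were at 10.08 and 10.21. Of the 2 probe sets of Fos, 10397350 was 1.10, 1.22 and 1.37 above WT in KO, wtKI and SNP and 10397348 was at 0.12, -0.11 and 0.49. For Fosb, 10560483 had the largest differences (2.53 in KO and 2.09 in SNP). It lay under the 5th percentile of its array on 8 of 12 arrays, near background, so those sizes are not exact. Probe sets 10560482 and 10560484 were at 0.20 and 0.11 in KO and at 0.60 and 0.10 in SNP. Without 10560483 the gene value of Fosb was 0.16 above WT in KO, against 0.62 with it. The 6 probe sets of Nab2 were split in sign in every comparison. Over all 22 probe sets 18, 17 and 19 were higher in KO, wtKI and SNP than in WT, none passed over all probe sets (limma), and 4, 3 and 5 were at an unadjusted p under 0.05, where 4.95%, 3.26% and 12.7% of all probe sets were.

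**Figure D4:**
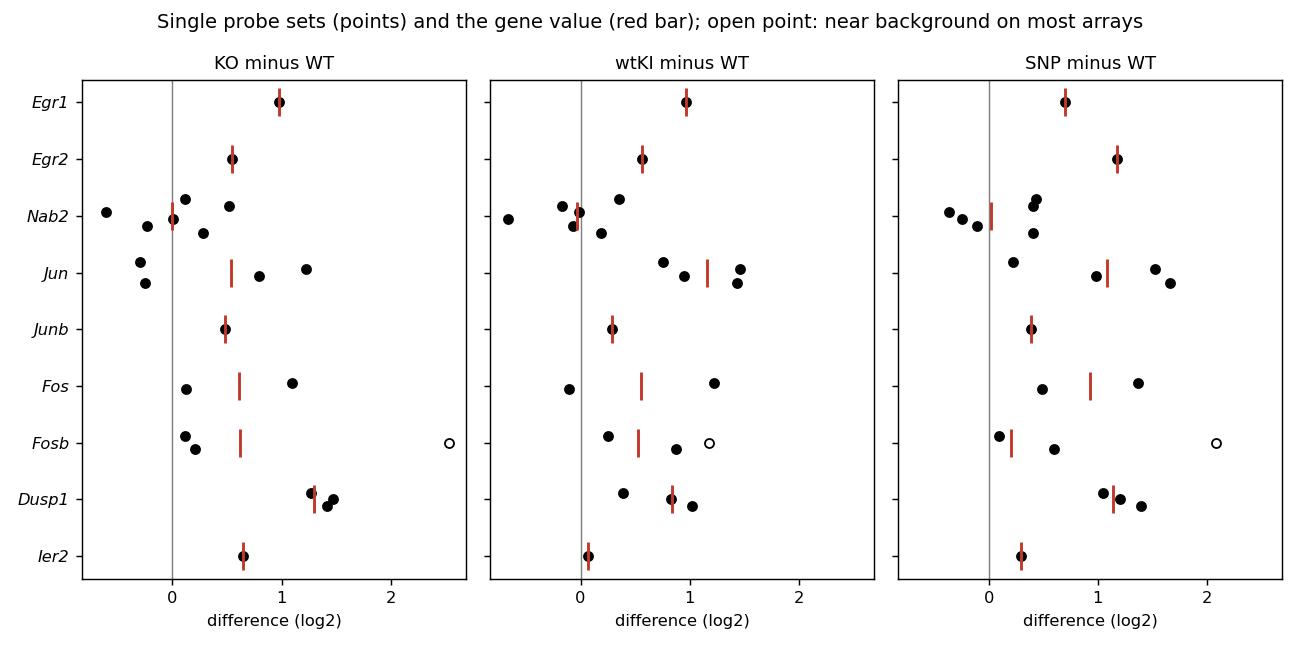
Difference from WT (log2, horizontal axis) of each of the 22 probe sets (points) and of the gene value made from them (red bars) for KO, wtKI and SNP; the open point is the Fosb probe set that is near background on 8 of 12 arrays. The 3 Dusp1 probe sets lie together above 0 in each panel, those of Nab2 lie on both sides of 0, and those of Jun split in KO.

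Other immediate-early genes were, as a list, nearer to the median of all genes in KO and wtKI than the members were. Of 35 measured (among them the transcription factors Egr3, Jund, Klf2, Klf4, Klf6 and Myc), 22 were higher in KO than in WT (median 0.05, and -0.02 on the 10 arrays), 23 in wtKI (median 0.07) and 23 in SNP (median 0.37, and -0.03 on the 10 arrays). None passed over all genes in any of the 6 comparisons, and 3, 0 and 7 of 35 were at an unadjusted p under 0.05 in KO, wtKI and SNP against WT, where 4.72%, 3.06% and 15.9% of all genes were. The smallest p-values in KO belonged to Rgs1, a regulator of G-protein signalling (1.85 ± 0.62), Cd69, an activation marker of leukocytes (-1.50 ± 0.55), and Nfkbiz, a nuclear IkB protein (1.22 ± 0.55), with limma adjusted p of 0.802, 0.919 and 0.9996. Rgs1, Cd69 and Nfkbiz were at 0.94, -0.68 and 1.19 on the 10 arrays. In wtKI they belonged to Jund, a further AP-1 subunit (0.45 ± 0.22), Maff (-1.03 ± 0.51) and the nuclear receptor Nr4a2 (-0.41 ± 0.22). Between SNP and wtKI they belonged to Btg1, an antiproliferative gene (1.79 ± 0.68), the kinase Sgk1 (1.27 ± 0.51) and the NF-kB inhibitor Nfkbia (0.56 ± 0.24), each with limma adjusted p = 0.551. Their differences on the 10 arrays were 0.97, 0.55 and 0.37. On SNP 1 the list's mean was 1.00 above WT, and on SNP 2 and SNP 3 it was -0.06 and 0.00 from it.

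Genes of the signalling steps before and after the members were higher in some cases and lower in others. Of 19 measured genes of RAS, MAP kinase (ERK, p38 and JNK) and SRF signalling, 7 were higher in KO than in WT (median -0.08), 8 in wtKI (median -0.03) and 6 in SNP (median -0.16). Between SNP and wtKI 7 were higher in SNP (median -0.03). In SNP against WT 5 of the 19 were at an unadjusted p under 0.05, 4 of them lower, where 15.9% of all genes were at that level. On the 10 arrays the median was -0.18. The smallest p-values in KO were those of the ribosomal S6 kinases Rps6ka1 (-0.60 ± 0.26) and Rps6ka3 (0.66 ± 0.31) and of the p38 kinase Mapk14 (-0.29 ± 0.15). In wtKI they were those of the ERK kinase Map2k2 (-0.47 ± 0.20), the SRF partner Elk1 (-0.41 ± 0.22) and Mapk8 (0.46 ± 0.30). Between SNP and wtKI they were those of the SRF partner Elk3 (-0.83 ± 0.36), the JNK kinase Mapk9 (-0.91 ± 0.42) and Elk4 (0.30 ± 0.19). Without KO 1 and SNP 1, Rps6ka1 was at -0.38 in KO, and Elk3, Mapk9 and Elk4 were at -0.33, -0.28 and 0.14 between SNP and wtKI. Of 10 other feedback inhibitors of MAP kinases, 4 were higher in KO, 5 in wtKI, and 4 in SNP than in wtKI (medians -0.19, -0.01 and -0.09, and on the 10 arrays -0.26, -0.01 and -0.27). At an unadjusted p under 0.05 (limma) there were 2 of these 10 in SNP against wtKI on 12 arrays, where 8.84% of all genes were. Spry2, an inhibitor of receptor tyrosine kinase signalling, was 0.56 ± 0.23 above WT in KO and -0.67 ± 0.23 from wtKI in SNP, and Spry1 and Spred2 were at -0.79 ± 0.30 and -0.81 ± 0.38 in SNP against wtKI. Without KO 1 and SNP 1, the differences from wtKI were -0.54 for Spry2, -0.68 for Spry1 and -0.40 for Spred2. Heat shock genes, which respond to cell stress, were higher in 6, 5 and 3 of 11 (medians 0.03, 0.00 and -0.17), and Dnajb4, a cochaperone, had the smallest p in SNP against wtKI (-0.93 ± 0.45, and -0.31 on the 10 arrays). No gene of these 3 lists passed over all genes (limma, adjusted p of at least 0.551 for the genes named).

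Among the factors reported to act with Egr1, Egr2 and Gfi1 in the choice of fate, 9 were measured. Csf2rb, the beta chain shared by the GM-CSF and related cytokine receptors, passed over all genes in SNP against KO, where it fell by 1.41 ± 0.17 (8.34 in KO and 6.93 in SNP, limma adjusted p = 0.0478). On the 10 arrays Csf2rb was at -1.45 in that comparison, and no gene passed. On 12 arrays it was 1.15 ± 0.17 above WT in KO (adjusted p = 0.0942) and -0.58 ± 0.17 from wtKI in SNP (adjusted p = 0.551). The gene value of Gfi1 was 0.66 ± 0.21 higher in KO than in WT (limma adjusted p = 0.802). Its relative Gfi1b was at 0.43 ± 0.18 in KO against WT (limma adjusted p = 0.9996). Irf8, a factor of monocyte development, was at -0.71 ± 0.25 (limma adjusted p = 0.888). In that comparison 4 of the 9 were at an unadjusted p under 0.05, where 4.72% of all genes were, and 0 passed. In SNP against wtKI Cebpa, a factor of the granulocyte lineage, was at -0.41 ± 0.28 and Irf8 at -0.32 ± 0.25, and on the 10 arrays at -0.14 and -0.13.

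Markers of other cell types that the sort could hold were read on the same arrays. Mast cell and basophil markers (7 measured) were above the WT mean by 1.36, 1.18 and 1.33 in KO, 0.08, 0.35 and 1.35 in wtKI and 0.18, -0.24 and 0.45 in SNP, with the WT arrays at -0.21, 0.55 and -0.34. In KO against WT 7 of 7 were higher (46.9% of all genes, median 1.25 against -0.02). Fcer1a, a chain of the IgE receptor, was at 3.39 ± 0.79 (limma adjusted p = 0.403), and 0 of the 7 passed over all genes. wtKI 3, the wtKI array with the highest Egr1, Jun, Fos and Dusp1, was also the one with the highest mast cell markers. It was the lowest wtKI array for Fosb (6.80) and Ier2 (5.70). WT 2 had the highest mast cell markers in WT, and the members' mean on it was -0.06 from the WT mean. KO 3, at 1.33 for mast cell markers, had the lowest members' mean in KO, 0.37 above WT. The mean of 14 late neutrophil markers ranged from -0.50 to 0.56 around WT in WT, from -1.22 to 0.17 in KO, from -0.42 to 0.28 in wtKI and from -0.07 to 3.93 in SNP. On KO 2 and KO 3, 6 and 7 of the 14 were under the 5th percentile of the array. In KO against WT 10 of the 14 were lower, but the smallest p belonged to Mmp8, which was 3.36 ± 0.74 higher (3.40 on the 10 arrays). Ngp and Ltf followed at -3.17 ± 1.14 and -2.39 ± 1.05 (-3.88 and -2.81 on the 10 arrays), and none of the 14 passed over all genes (limma). Erythroid markers (7 measured) were at 1.48 on KO 1 and 3.29 on SNP 1 and between -0.48 and 0.51 on the other arrays. B-lineage markers (7 measured) were at 1.00 and 3.63 there and between -0.08 and 0.72 elsewhere. Monocyte and macrophage markers (8 measured) were highest on SNP 1 (0.83) and between -0.50 and 0.31 elsewhere, and 4 of 8 were higher in KO than in WT (median -0.23). Between KO and WT, without KO 1, the members' median was 0.57, that of the mast cell and basophil markers 0.94 with 7 of 7 higher, and those of the neutrophil, erythroid, monocyte and B-lineage markers -0.84, -0.23, -0.37 and -0.06. The part of these cell types in the result was not tested.

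The 5 genes whose values followed the mean of the members most closely over the 10 arrays were B3gntl1 (r = 0.96), Pla2g7, a secreted phospholipase (0.92), Vamp5, a vesicle protein (0.92), Cyb5d2 (0.91) and Fbxo48 (0.89), with each member centred on its own mean. Over 12 arrays the same genes had r = 0.68, 0.85, 0.72, 0.12 and 0.28. They are the highest of all the genes compared, and are named as a description of these arrays. Vamp5 was at 7.63, 7.68 and 8.09 in WT, 8.97, 9.02 and 8.31 in KO, 8.31, 9.16 and 9.14 in wtKI and 8.30, 7.75 and 8.70 in SNP. SNP 2 was the lowest SNP array for Vamp5, as it was for Egr1, Fos, Fosb and Dusp1.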

How the data were processed

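RNA of sorted GMPs was amplified with NuGEN kits for small inputs, biotin-labelled and hybridised, per the labels' protocols. The authors deposited log2 values, and the submitters' processing notes name RMA (version and settings: not given in the sources used here). The platform annotation gives 98975 probe sets 1 gene symbol, 1703 several and 4983 none. Those with 1 symbol were combined per gene and array by median polish. Comparisons used limma 3.58.1 in R 4.3.3 (lmFit, eBayes), fitted to the 12 arrays together, and p-values were adjusted over 14201 genes by Benjamini-Hochberg. The fit was tested on simulated data with independent values and the same spread on every array, which does not cover arrays that stand apart. Members, lists and tests were chosen with earlier results of these data known. The named genes are the members, up to 3 genes per list with the smallest p (or those that passed), and the 5 genes most like the members. Symbols of 5 list genes were matched through synonyms of a RefSeq table (GRCm38.p6). The deposited table gives no depth; the number of arrays limits the precision. Replicate numbers were not used as pairs in the main fit, and whether they pair the arrays is not known. Alternatives were other summaries of probe sets, normalizations, filters, variance models, sex and left-out arrays.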

Additional observations from a re-analysis of the deposited data

How the results depend on the processing

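No member's difference passed over all genes (limma) under 24 of the 25 settings. The exception was array weights, with 2 members called in KO against WT (Jun and Egr1) and 2 in the F test over 4 genotypes (Egr2, adjusted p = 0.0464, and Jun, adjusted p = 0.0372); in all other counts it gave 0. Leaving out the dimmest 30% of genes removed Junb and Ier2, which then have no value. The median of the members moved by more than the replicate SD in a few cases. In SNP against WT it was 0.24 with both KO 1 and SNP 1 left out, and between 0.24 (without SNP 1) and 1.16 (without SNP 2) with 1 array left out. In SNP against KO it was between -0.39 and 0.39 with 1 array left out. In wtKI against WT it was 0.87 with the probe set of highest mean, and in KO against wtKI 0.25 with the sex term. The cause was not tested. The replicate block left the medians at 0.61, 0.56, 0.70, 0.10, -0.09 and 0.05 (comparisons in the order of the report), 0 members called, and 0 genes in place of 2 in SNP against KO. Same-numbered arrays deviated with correlations from -0.19 to 0.35, of which 4 of 18 were over 0.1. Of the 12 arrays, 3 correlated best with their own number, and both arrays that stood apart, KO 1 and SNP 1, carry number 1. With so few arrays this cannot settle whether the numbers pair them. Of 1338 single differences, 1247 kept their direction and their side of the threshold, 2 passed and 89 changed sign; the values after the change follow.

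With the mean of the probe sets these were Nab2 0.013 in KO against WT, Fosb 0.16 in SNP against wtKI. With every probe set tested these were Nab2 0.063 in KO against WT, Jun 0.051 in SNP against wtKI, Nab2 -0.034 and Fosb -0.14 in KO against wtKI. With arrays centred on the median these were Nab2 0.044 in KO against WT, Jun 0.032 in SNP against wtKI, Egr2 0.010 in KO against wtKI. With quantile normalization repeated these were Nab2 0.063 in KO against WT. With array weights these were Ier2 -0.030 in wtKI against WT, Nab2 -0.096 and Ier2 -0.063 in SNP against WT, Nab2 -0.057, Jun 0.081, Junb -0.12 and Ier2 -0.034 in SNP against wtKI, Nab2 -0.058 and Junb -0.064 in KO against wtKI. With the sex term these were Ier2 -0.095 in wtKI against WT, Egr1 0.058 and Jun 0.080 in SNP against wtKI, Egr2 0.25 and Fosb -0.012 in KO against wtKI. With the probe set of highest mean these were Nab2 -0.11 in SNP against WT, Nab2 -0.042 and Jun 0.033 in SNP against wtKI, Fosb 0.40 in SNP against KO, Nab2 -0.17, Fos -0.12 and Fosb -0.67 in KO against wtKI. With both KO 1 and SNP 1 left out these were Nab2 -0.095, Fosb -0.039 and Ier2 -0.043 in SNP against WT, Nab2 -0.065, Junb -0.20, Dusp1 -0.19 and Ier2 -0.12 in SNP against wtKI, Nab2 -0.014 in SNP against KO, Nab2 -0.051, Junb -0.056 and Fos -0.11 in KO against wtKI. With probe sets near background left out (added after seeing the data) these were Fosb 0.19 in SNP against KO, Fosb -0.40 in KO against wtKI.

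With 1 array left out the following changed sign. In KO against WT Nab2 lay between -0.19 and 0.14. In wtKI against WT Nab2 lay between -0.21 and 0.12 and Ier2 between -0.28 and 0.34. In SNP against WT Nab2 lay between -0.16 and 0.17, Fosb between -0.086 and 0.74 and Ier2 between -0.047 and 0.58. In SNP against wtKI Egr1 lay between -0.73 and 0.40, Nab2 between -0.065 and 0.15, Jun between -0.23 and 0.11, Junb between -0.20 and 0.33, Fosb between -0.61 and 0.21, Dusp1 between -0.19 and 1.00 and Ier2 between -0.12 and 0.51. In SNP against KO Egr1 lay between -0.74 and 0.39, Nab2 between -0.087 and 0.12, Junb between -0.39 and 0.15, Fosb between -0.73 and 0.13 and Dusp1 between -0.65 and 0.54. In KO against wtKI Egr1 lay between -0.35 and 0.40, Egr2 between -0.18 and 0.076, Nab2 between -0.051 and 0.074, Junb between -0.056 and 0.36, Fos between -0.14 and 0.23 and Fosb between -0.45 and 0.41.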
